A study of Mus musculus with 15 samples.

Results

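De novo lipogenesis builds fatty acids from acetyl-CoA, and this account follows 10 genes of that pathway through the mouse aorta: the enzymes Acly, Acss2, Acaca, Acacb, Fasn, Scd1, Elovl6 and Elovl5 and the transcription factors Srebf1 and Mlxipl. The list names fatty acid synthesis genes and regulators by function; no measured value enters its rule, although it was drawn up with earlier results of these data known. All 10 were measured, each by 1 probe set naming that gene alone, among 22180 genes in all. The RNA came from DBA/2NCrl mice that were 8 weeks old when the experiment began and were fed for 5 days with either a diet of 20.2 g phosphorus per kg (high phosphate) or a standard chow of 7.0 g phosphorus per kg. Abdominal aorta was measured on 4 high-phosphate and 4 chow arrays, and thoracic aorta on 3 high-phosphate and 4 chow arrays. Every group was of this 1 strain. The labels call the arrays biological replicates and give neither the sex of the mice nor whether both segments came from the same animal.

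In the cytosol ATP citrate lyase (Acly) and acetyl-CoA synthetase (Acss2) supply acetyl-CoA, acetyl-CoA carboxylase turns it into malonyl-CoA, and fatty acid synthase (Fasn) assembles palmitate, which elongases and stearoyl-CoA desaturase (Scd1) lengthen and desaturate. SREBP-1c, encoded by Srebf1, is known for driving these genes in response to insulin, and ChREBP, encoded by Mlxipl, in response to glucose. Liver and fat are the classical sites of the pathway. The wall of the aorta is surrounded by perivascular adipose tissue, which is close to brown fat around the thoracic segment in mice.

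Smooth muscle marker genes averaged 8.01 to 8.68 log2 units on the abdominal arrays and 8.93 to 9.26 on the thoracic ones, over 10 genes, as fits a labelled aorta. Markers of other cells were measured too. A list of white and general adipocyte genes (14 measured of 15) averaged 8.67 to 9.02 on abdominal high phosphate, 9.36 to 9.78 on abdominal chow, 9.09 to 9.54 on thoracic high phosphate and 9.44 to 9.81 on thoracic chow. Hepatocyte genes (12 of 12 measured) averaged 8.48 and 10.72 on abdominal high-phosphate arrays 3 and 4 and no more than 6.37 on any other array. T and NK cell genes (11 of 13) averaged 7.39 to 8.25 on abdominal high-phosphate arrays 1, 2 and 4 and abdominal chow arrays 2 and 4, and 5.56 to 6.16 on the other 10. Cardiac muscle genes averaged 7.83 to 8.84 on thoracic arrays and 5.82 to 6.01 on abdominal arrays. Sympathetic neuron and chromaffin genes averaged 5.87 to 6.82 on thoracic arrays and 7.8 to 9.18 on abdominal arrays. In whole tissue, fewer cells of a type and less RNA per cell cannot be told apart. Arrays of 1 group correlated at r = 0.9739 to 0.9885 over all probe sets.

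The genes lie on 6 chromosomes of the mouse genome (RefSeq, GRCm38.p6). Fasn is at chr11:120805958-120825166, Acaca at chr11:84129635-84401651, Acly at chr11:100476352-100528000 and Srebf1 at chr11:60199084-60224186. Acacb is at chr5:114146321-114250761 and Mlxipl at chr5:135089890-135139768. Acss2 is at chr2:155518043-155562743, Scd1 at chr19:44394450-44407709, Elovl6 at chr3:129532386-129638495 and Elovl5 at chr9:77917365-77984519.

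Promoter windows of 4 genes are shown because they belong to genes that behaved differently: Fasn, with the greatest fall; Acss2, with the tightest high-phosphate group; Elovl5, called lower in both segments; and Acacb, which was not lower in either. Each is the 250 bases before a transcription start listed in RefSeq (GRCm38.p6), 5′ to 3′ on the gene's strand. Capitals mark matches on either strand to CACGTG (the E-box), TCACNCCAC (close to a sterol response element), CCAAT (the NF-Y box) or GGGCGG (the GC box). Fasn was read at chr11:120824548-120824797 on the minus strand, Acss2 at chr2:155517793-155518042, Elovl5 at chr9:77917115-77917364 and Acacb at chr5:114165268-114165517, all 3 on the plus strand. The Acss2 and Elovl5 windows end where the gene spans given above begin. The Fasn and Acacb windows lie inside those spans, before a start within the gene.
Fasn: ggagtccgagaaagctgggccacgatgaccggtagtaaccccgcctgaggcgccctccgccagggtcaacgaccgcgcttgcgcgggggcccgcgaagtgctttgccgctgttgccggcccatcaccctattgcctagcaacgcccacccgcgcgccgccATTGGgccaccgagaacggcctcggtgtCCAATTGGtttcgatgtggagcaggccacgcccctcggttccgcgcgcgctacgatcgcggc
Acss2: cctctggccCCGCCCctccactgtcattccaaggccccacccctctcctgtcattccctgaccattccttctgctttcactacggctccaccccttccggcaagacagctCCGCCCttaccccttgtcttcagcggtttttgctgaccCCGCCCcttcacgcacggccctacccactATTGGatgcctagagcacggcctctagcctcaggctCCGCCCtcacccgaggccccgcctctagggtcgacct
Elovl5: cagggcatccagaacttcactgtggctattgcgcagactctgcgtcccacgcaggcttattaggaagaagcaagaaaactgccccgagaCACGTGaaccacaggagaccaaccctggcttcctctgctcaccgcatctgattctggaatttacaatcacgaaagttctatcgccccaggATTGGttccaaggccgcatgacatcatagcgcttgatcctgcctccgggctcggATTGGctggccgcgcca
Acacb: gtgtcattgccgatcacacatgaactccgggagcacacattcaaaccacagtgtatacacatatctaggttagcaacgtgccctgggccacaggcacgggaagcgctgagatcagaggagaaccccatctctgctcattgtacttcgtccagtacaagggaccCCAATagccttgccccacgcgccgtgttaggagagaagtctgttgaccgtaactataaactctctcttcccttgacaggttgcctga

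The Fasn window held 3 CCAAT matches, beginning 90, 62 and 59 bases before the start, the last pair overlapping head to head. In Acss2 there were 4 GGGCGG matches and 1 CCAAT match. Elovl5 held 1 CACGTG match 161 bases before the start and 2 CCAAT matches, and Acacb 1 CCAAT match at 87 bases. Windows were at hand for 9 of the 10 genes, Scd1 being without one, and 12 windows in all since some genes had several starts. CCAAT occurred in 7 of the 12 against 33.9% of 32841 windows of the same length in the RefSeq table, GGGCGG in 5 against 32.7%, CACGTG in 2 (Elovl5 and Mlxipl) against 6.02% and TCACNCCAC in 1 (Mlxipl) against 1.05%. A match is a description of the letters only.

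**Figure D1:**
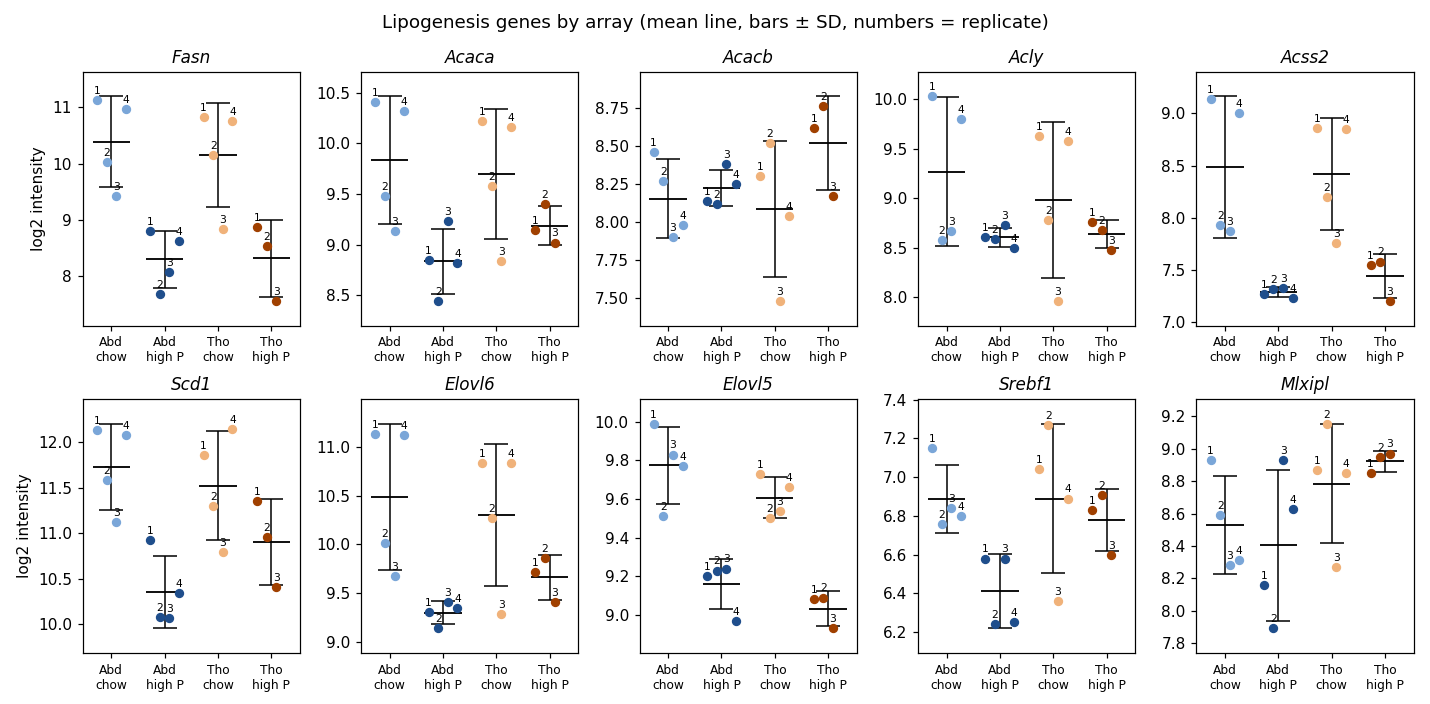
Log2 intensity of each of the 10 genes on every array, by segment (Abd, abdominal; Tho, thoracic) and diet (high P, high phosphate), with replicate numbers beside the points, a line at the group mean and bars of ± 1 SD. Fasn on abdominal chow ran from 9.42 to 11.12, above all 4 high-phosphate arrays at 7.69 to 8.81. The vertical scale differs between panels.

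After 5 days of high phosphate the abdominal aorta had lower Fasn, Scd1, Acss2 and Elovl5 transcript levels, by 4.25-fold, 2.59-fold, 2.29-fold and 1.53-fold. No member was called higher. The diet comparison sets the high-phosphate diet against the standard chow. Any other difference between these diets cannot be told apart from that in phosphorus. A gene was called where its p from limma, adjusted by the method of Benjamini and Hochberg across the 22180 genes, was under 0.05. The 4 calls among 10 genes compare with 5.06% of all genes called lower and 1.95% called higher in the abdominal segment. The members' median change was -0.83 log2 units against -0.01 over all genes, and for 6 of 10 the high-phosphate arrays lay wholly below the chow arrays, as they did for 7.75% of all genes. Elovl5 was the 1 member called in the thoracic segment, lower by 1.49-fold, where 1.08% of genes were called lower and 1.39% higher. The thoracic median was -0.54 against -0.01, and 2 members did not overlap, Acss2 and Elovl5, against 6.67% of genes. Unadjusted p was under 0.05 for 7 members in the abdominal and 3 in the thoracic segment, against 4443 and 3051 of the 22180 genes.

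Acetyl-CoA supply came first in the pathway. Acss2, which makes acetyl-CoA from acetate, read 7.27, 7.32, 7.33 and 7.23 on abdominal high-phosphate arrays 1 to 4 and 9.14, 7.93, 7.87 and 9.0 on the chow arrays. The high-phosphate arrays were nearly equal and all lower, while chow arrays 1 and 4 stood more than 1 log2 unit above arrays 2 and 3. The fall was -1.19 ± 0.284 (SE; 95% interval -1.8 to -0.59; n = 4 and 4; limma adjusted p = 0.0183), and the call was lost when chow array 1 was left out (adjusted p = 0.0712). Thoracic Acss2 was 7.55, 7.58 and 7.20 on high phosphate and 8.86, 8.20, 7.76 and 8.85 on chow, again without overlap. That difference, -0.98 ± 0.307 (n = 3 and 4), did not pass the test (limma adjusted p = 0.119).

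Acly, which splits cytosolic citrate into acetyl-CoA and oxaloacetate, differed from Acss2 in that its chow arrays spread down to the high-phosphate level. Abdominal values were 8.61, 8.59, 8.73 and 8.50 on high phosphate and 10.03, 8.58, 8.67 and 9.80 on chow. Chow arrays 2 and 3 were thus at the high-phosphate level and arrays 1 and 4 far above it. Thoracic values were 8.76, 8.68 and 8.48 on high phosphate and 9.63, 8.78, 7.96 and 9.58 on chow, with chow array 3 the lowest of all. The differences of -0.66 ± 0.352 (95% interval -1.41 to 0.09) and -0.35 ± 0.381 (-1.16 to 0.46) were within the spread of the arrays (limma adjusted p = 0.322 and 0.791).

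Neither acetyl-CoA carboxylase was called in either segment. Acaca, the cytosolic isoform that feeds fatty acid synthesis, had abdominal values of 8.85, 8.44, 9.23 and 8.82 on high phosphate and 10.41, 9.48, 9.13 and 10.32 on chow, with chow array 3 inside the high-phosphate range. Its difference of -1.0 ± 0.311 (95% interval -1.66 to -0.34) missed the threshold (limma adjusted p = 0.0694). In the thoracic segment Acaca was 9.14, 9.40 and 9.02 on high phosphate and 10.22, 9.58, 8.84 and 10.16 on chow, a difference of -0.51 ± 0.336 (adjusted p = 0.576). Acacb, the isoform at the outer mitochondrial membrane whose malonyl-CoA restrains fatty acid oxidation, averaged 8.22 ± 0.12 (SD, n = 4) on abdominal high phosphate and 8.15 ± 0.257 (n = 4) on chow. Thoracic Acacb was 8.62, 8.76 and 8.17 on high phosphate and 8.30, 8.52, 7.48 and 8.04 on chow, overlapping groups in which the high-phosphate mean was the higher. The difference was 0.07 ± 0.192 (-0.34 to 0.48; adjusted p = 0.892) in the abdominal segment and 0.43 ± 0.207 (-0.01 to 0.87; adjusted p = 0.374) in the thoracic one. With the adipocyte list mean as a covariate the thoracic Acacb difference was 0.797 and was called (limma adjusted p = 0.00713).

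Fasn, the multifunctional synthase, changed most in size. It read 8.81, 7.69, 8.08 and 8.62 on abdominal high phosphate and 11.12, 10.03, 9.42 and 10.97 on chow. The lowest chow array was above the highest high-phosphate array. The abdominal fall was -2.09 ± 0.458 log2 units (95% interval -3.07 to -1.11; limma adjusted p = 0.0111). Thoracic arrays read 8.87, 8.53 and 7.56 on high phosphate and 10.83, 10.15, 8.84 and 10.76 on chow, so that chow array 3 alone fell within the high-phosphate range. The thoracic difference of -1.82 ± 0.495 (-2.88 to -0.77) did not pass over all genes (adjusted p = 0.0697). Without thoracic chow array 3 it was -2.257 and passed (adjusted p = 0.0173).

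Scd1, which puts the first double bond into stearate and palmitate, was 10.92, 10.08, 10.07 and 10.34 on abdominal high phosphate and 12.13, 11.58, 11.12 and 12.08 on chow. No array overlapped, and the fall was -1.37 ± 0.302 (95% interval -2.01 to -0.73; limma adjusted p = 0.0113). On thoracic arrays it was 11.35, 10.96 and 10.41 on high phosphate and 11.86, 11.30, 10.79 and 12.14 on chow, overlapping groups with a difference of -0.61 ± 0.326 (-1.31 to 0.08; adjusted p = 0.444).

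Elovl6, the elongase that takes palmitate to stearate, had high-phosphate values of 9.31, 9.14, 9.41 and 9.35 and chow values of 11.13, 10.01, 9.68 and 11.12 in the abdominal segment. The groups did not overlap, yet the difference of -1.18 ± 0.341 just missed the threshold (limma adjusted p = 0.0501). Thoracic values were 9.72, 9.86 and 9.41 on high phosphate and 10.83, 10.27, 9.29 and 10.83 on chow (-0.64 ± 0.368; adjusted p = 0.492). Here chow array 3 was the lowest of the 7 arrays.

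Elovl5, which elongates polyunsaturated fatty acids, gave the smallest fall of the called genes and the tightest. Abdominal arrays read 9.20, 9.23, 9.24 and 8.97 on high phosphate and 9.99, 9.51, 9.83 and 9.77 on chow; thoracic arrays read 9.08, 9.09 and 8.93 and 9.73, 9.5, 9.54 and 9.66. Every high-phosphate array of either segment was below every chow array of either segment. The fall was -0.62 ± 0.0946 (95% interval -0.82 to -0.41; limma adjusted p = 0.000898) in the abdominal and -0.58 ± 0.102 (-0.79 to -0.36; adjusted p = 0.00847) in the thoracic segment. Both calls held with each of the 15 arrays left out in turn, with adjusted p up to 0.00417 and 0.0436.

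Neither transcription factor was called in either segment. Srebf1 read 6.58, 6.24, 6.58 and 6.25 on abdominal high phosphate and 7.15, 6.76, 6.84 and 6.80 on chow, which did not overlap, but its difference of -0.47 ± 0.163 (95% interval -0.82 to -0.12) did not pass (limma adjusted p = 0.104). Thoracic Srebf1 was 6.83, 6.91 and 6.60 on high phosphate and 7.04, 7.27, 6.36 and 6.89 on chow, a difference of -0.11 ± 0.176 (adjusted p = 0.882). The value is that of the gene, with its SREBP-1a and SREBP-1c transcripts not told apart. Mlxipl averaged 8.4 ± 0.466 (SD, n = 4) and 8.53 ± 0.302 (n = 4) on abdominal high phosphate and chow, and 8.92 ± 0.0639 (n = 3) and 8.78 ± 0.367 (n = 4) on the thoracic arrays. Neither difference passed (-0.12 ± 0.217 and 0.14 ± 0.234; adjusted p = 0.813 and 0.887). Mlxipl, which liver also expresses, was 8.93 and 8.63 on the abdominal high-phosphate arrays with hepatocyte markers and 8.16 and 7.89 on the others of that group. It was also 8.93 on abdominal chow array 1, where the hepatocyte list mean was 5.02. A part of liver RNA in these values was not tested.

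**Figure D2:**
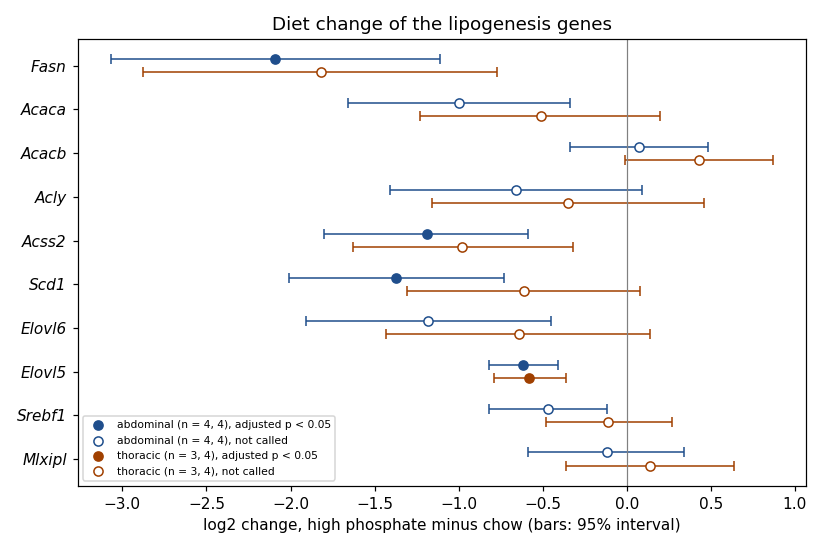
Change with diet (high phosphate minus chow, log2 units) of each gene in the abdominal (blue) and thoracic (brown) aorta, with 95% intervals from limma; filled points passed an adjusted p under 0.05. Elovl5 was called in both segments at -0.62 and -0.58, with the shortest intervals. Fasn had the greatest changes, -2.09 and -1.82.

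Several other marker lists moved with the abdominal falls. In the abdominal diet change, 7 of 14 white and general adipocyte genes were called lower, among them Plin1, a coat protein of fat droplets (-1.71 ± 0.219; limma adjusted p = 0.000237), and Adipoq, the hormone adiponectin (-0.48 ± 0.118; adjusted p = 0.0214). Fabp4, an abundant fatty acid carrier of fat cells, was not called (-0.16 ± 0.0471; adjusted p = 0.0627). Of 11 brown adipocyte genes 9 were called lower, and the list mean was 6.9 to 7.32 on high phosphate against 8.11 to 8.56 on chow. Of 9 fibroblast genes 6 were called lower, with list means of 8.26 to 8.47 against 8.94 to 9.24. The thoracic counts were 1 of 14, 5 of 11 and 2 of 9. Macrophage genes went the other way, with 1 of 9 called higher in the abdominal and 0 in the thoracic segment. Their list mean was 7.73 to 8.13 on abdominal high phosphate against 7.51 to 7.9 on chow. On thoracic arrays it was 7.81 to 8.28 against 7.5 to 7.82. The part of these cell types in the lipogenesis changes was not tested. A limma fit with the white and general adipocyte mean as a covariate called 0 members in the abdominal segment (3 at an unadjusted p under 0.05). It called 21 of all 22180 genes there, against 1554 without the covariate. Fasn was -0.649 ± 0.785 (limma adjusted p = 0.855) and Elovl5 -0.552 ± 0.183 (adjusted p = 0.345). That mean was 8.67 to 9.02 on abdominal high phosphate and 9.36 to 9.78 on abdominal chow. With no overlap between the diets, the fit cannot separate the mean from diet in that segment. In the thoracic segment that fit gave Elovl5 at -0.554 ± 0.118, still called (limma adjusted p = 0.0256).

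The abdominal count also differed without arrays high in markers of other tissues. Without the pair of abdominal high-phosphate arrays high in hepatocyte genes 2 members were called, Fasn and Elovl5, and 1732 of all genes. Acss2 was then at -1.184 ± 0.367 and Scd1 at -1.225 ± 0.381 (limma adjusted p = 0.0662 and 0.067). Without the 5 abdominal arrays high in T and NK cell genes, which leaves 1 high-phosphate and 2 chow arrays there, 0 were called (4 at an unadjusted p under 0.05 in limma), and 137 of all genes. The sizes without those 5 arrays were -2.19 for Fasn, -1.177 for Acss2, -1.549 for Scd1 and -0.667 for Elovl5 (limma adjusted p = 0.0561 for Elovl5), the lone array being assumed to vary like the other groups. Leaving out thoracic chow array 3, which enters only the shared estimate of the spread, raised the abdominal count to 7: Fasn, Acaca, Acss2, Scd1, Elovl6, Elovl5 and Srebf1. The count over all genes in that fit is not given here, so the 7 cannot be set against a share.

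The diet changes of the abdominal and thoracic segments were not shown to differ. Of 10 members 0 were called in the difference of the diet changes, where 0% of all genes were called, and 0 members but 1217 of all genes had an unadjusted p under 0.05 in limma. All 10 differences (abdominal minus thoracic) were negative, with a median of -0.34 against -0.01 over all genes, and adjusted p ran from 0.879 to 0.98. The intervals were wide for most members: -1.7 to 1.17 for Fasn, -1.11 to 0.68 for Acss2, -1.61 to 0.53 for Elovl6 and -1.7 to 0.19 for Scd1, whose estimate of -0.76 ± 0.444 was the furthest from 0. Elovl5 had the narrowest, -0.34 to 0.26 around -0.04. These intervals include segment differences as large as several of the diet changes themselves.

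On chow the segments were close. Thoracic minus abdominal differences ran from -0.28 (Acly) to 0.26 (Mlxipl), and 0 of 10 members were called against 4.78% of all genes, with 0 members and 4311 of all genes at an unadjusted p under 0.05 in limma. The Fasn interval was -1.22 to 0.74 and the Elovl5 interval -0.37 to 0.04. On high phosphate 0 of 10 were called against 13.8% of all genes, and 1 member and 6241 of all genes had an unadjusted p under 0.05. The member was Mlxipl, higher in the thoracic arrays by 0.52 ± 0.234 (95% interval 0.02 to 1.02; limma adjusted p = 0.161). Srebf1 and Elovl6 did not overlap between the segments on high phosphate, with thoracic values the higher by 0.37 ± 0.176 (adjusted p = 0.189) and 0.36 ± 0.368 (adjusted p = 0.565); the same held for 13.7% of all genes. The adipocyte list means on high phosphate were also higher in the thoracic arrays, as given above. Fasn was 8.32 ± 0.681 (SD, n = 3) and 8.3 ± 0.512 (n = 4) there.

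On chow the replicate SD was above the all-gene median for 10 members in the abdominal and 9 in the thoracic segment. On high phosphate it was for 5 and 8. Several members shared the same high chow arrays, as given below, so counts of members here are not of independent genes. The median SD over the members was 0.552 log2 units on abdominal chow and 0.566 on thoracic chow, against 0.16 and 0.204 on high phosphate in the same segments. Over all genes the median SD was 0.146, 0.133, 0.139 and 0.127 in that order. The SD was larger on chow for 8 of 10 members in the abdominal segment, all but Srebf1 and Mlxipl, and for 10 of 10 in the thoracic one, compared with 52.6% and 52.4% of all genes. No test of the spread was run. Acss2 had the greatest abdominal ratio, an SD of 0.679 on chow and 0.0452 on high phosphate, 15 times as large, and Acly (0.753 and 0.0941) and Elovl6 (0.751 and 0.118) followed. Fasn and Scd1 kept a wide spread on both diets, with SDs of 0.805 and 0.512 for Fasn and 0.474 and 0.4 for Scd1. Elovl5 was tight throughout, with SDs between 0.0855 and 0.198.

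**Figure D3:**
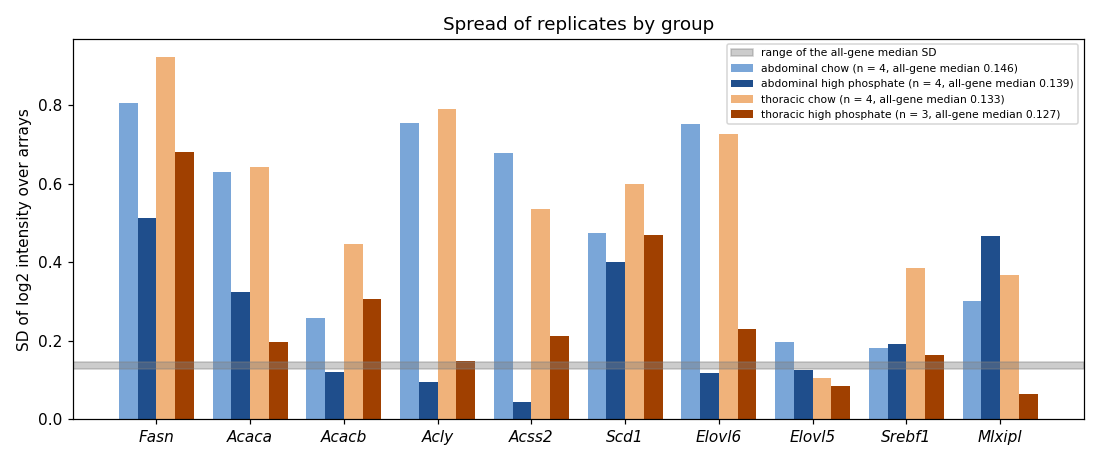
SD of log2 intensity over the arrays of each group for each gene, with the grey band spanning the median SD over all genes in the 4 groups (0.127 to 0.146). The chow bars (light) exceed the high-phosphate bars (dark) of the same segment except for Srebf1 and Mlxipl in the abdominal aorta.

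The chow spread had the same shape in several genes. For Fasn, Acaca, Acly, Acss2, Scd1 and Elovl6 the highest pair of the 4 abdominal chow arrays was arrays 1 and 4, and the same held for the 4 thoracic chow arrays. Elovl5 had that order in the thoracic segment only. Arrays 1 and 4 were picked as the pair after the values of these genes were seen. The shares over all genes that follow are therefore a description and not a test. Across all genes the order was found in 12.3% on abdominal and 13.7% on thoracic chow, and in both for 410 genes, 1.85%. It was also found in both for 7 of 74 genes of related pathways: Me1, Slc25a1, Pgd, Acsl5, Tecr, Insig1 and Thrsp, named here after their values were seen. The adipocyte list mean did not follow it, at 9.78, 9.74, 9.46 and 9.36 on abdominal chow arrays 1 to 4 and 9.66, 9.81, 9.44 and 9.63 on the thoracic ones. The hepatocyte list mean followed the order on thoracic chow arrays 1 to 4, at 5.63, 5.06, 5.19 and 6.37. On abdominal chow it did not, at 5.02, 4.99, 5.11 and 5.12. A part of liver RNA in the order was not tested. The T and NK cell mean was 5.64 on abdominal chow array 1 and 7.9 on array 4, where Fasn was 11.12 and 10.97. The labels do not say what, if anything, arrays of 1 number share, and no feature of the mice was tested.

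**Figure D4:**
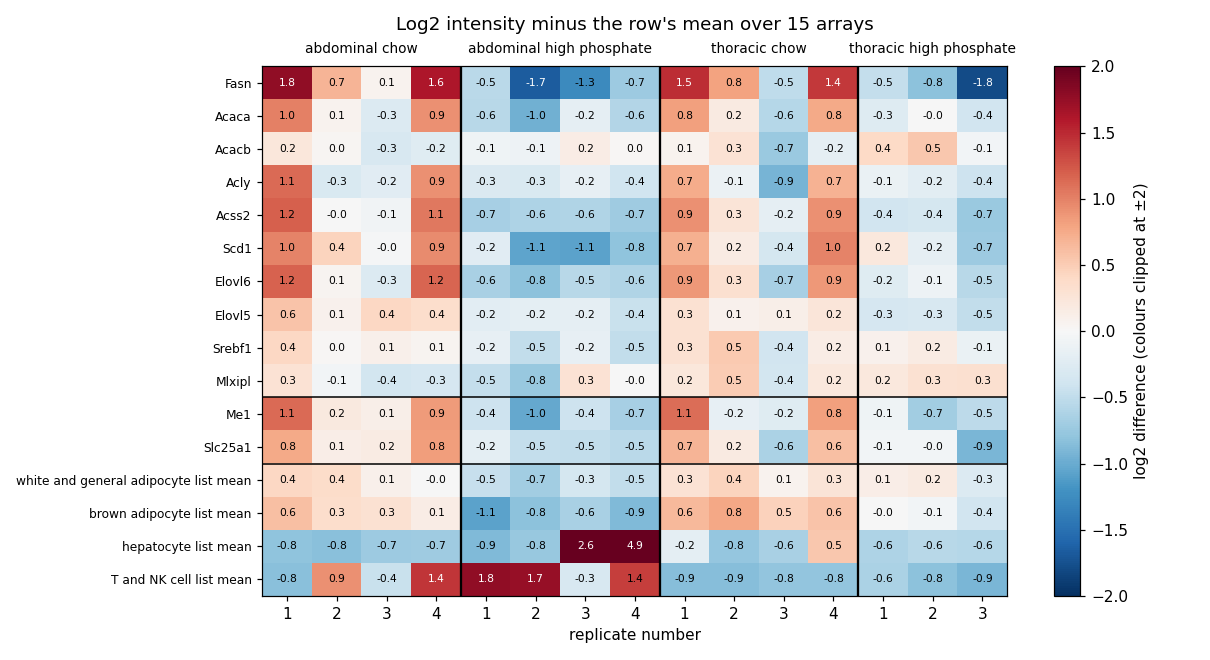
Log2 intensity of the 10 genes, of Me1 and Slc25a1 and of the mean of 4 marker lists on each of the 15 arrays, minus the mean of the row, in colour and as a number. Chow arrays 1 and 4 are the reddest columns for Fasn to Elovl6, apart from Acacb, in both segments, and this order is not seen in the adipocyte rows. The hepatocyte row has the order on thoracic chow only.

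The genes nearest in profile to the 4 most variable members were Me1, Slc25a1, Prnd, Agpat2 and Pnpla3. Likeness was the root mean square difference between the log2 profiles over 15 arrays, each centred on its mean, and it is given as a description. Nearest to Acss2 (SD over all arrays 0.701) were Me1 at 0.246, Prnd at 0.264 and Slc25a1 at 0.284. For Elovl6 (SD 0.706) they were Slc25a1 at 0.27, Me1 at 0.289 and Prnd at 0.313, and for Scd1 (SD 0.72) Slc25a1 and Me1, both at 0.294, and Prnd at 0.328. Fasn (SD 1.21) was nearest to Agpat2, an acyltransferase of triglyceride synthesis, at 0.536, then Pnpla3 at 0.562 and Me1 at 0.615. Me1 encodes cytosolic malic enzyme, a source of NADPH, and Slc25a1 the mitochondrial citrate carrier. Among the members themselves Acaca and Elovl6 were 0.15 apart and Acss2 and Elovl6 0.182.

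Of 74 measured genes in lists of related pathways, chosen with earlier results of these data known, 20 were called lower and 2 higher in the abdominal segment and 4 lower and 2 higher in the thoracic one. Over all genes the shares were 5.06% lower and 1.95% higher in the abdominal segment and 1.08% lower and 1.39% higher in the thoracic one. The same shares apply to every count of called list genes in a diet change. In the difference of the diet changes limma called 0 of the 74 (8 at an unadjusted p under 0.05), so the lower thoracic counts are not shown to differ from the abdominal ones. The list named citrate export and NADPH supply also takes in the mitochondrial enzymes that make citrate. It had 4 of 6 genes called lower in the abdominal aorta, with a list median of -0.9 against -0.01 over all genes. The called genes were Me1, citrate synthase (Cs), the pyruvate dehydrogenase subunit Pdha1 and cytosolic isocitrate dehydrogenase (Idh1). Cs and Pdha1 themselves neither export citrate nor supply NADPH. Me1 read 7.38, 6.76, 7.38 and 7.13 on abdominal high phosphate and 8.92, 7.99, 7.90 and 8.64 on chow (-1.20 ± 0.3; limma adjusted p = 0.0239). No Me1 array of one diet overlapped the other. Slc25a1 (-0.9 ± 0.269; adjusted p = 0.059) and Pgd (-0.59 ± 0.174; adjusted p = 0.0535) were not called. Cs alone was called in the thoracic segment (-0.47 ± 0.11; adjusted p = 0.0362).

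Among the regulators of SREBP, 3 of 14 genes were called lower in the abdominal and 2 in the thoracic segment, with list medians of -0.06 and 0. Insig1, the endoplasmic reticulum protein that retains SREBP and is itself an SREBP target, was 9.30, 9.25, 9.37 and 9.47 on abdominal high phosphate and 10.73, 10.37, 10.11 and 10.58 on chow. All its high-phosphate arrays were lower, by -1.10 ± 0.142 on average (limma adjusted p = 0.000242). In the thoracic segment Insig1 was 9.24, 9.02 and 8.95 against 10.41, 10.12, 9.79 and 10.43 (-1.12 ± 0.154; adjusted p = 0.00187). Ppargc1b, a coactivator that is also part of mitochondrial gene control, was called lower in both segments (-0.84 ± 0.149 and -0.68 ± 0.161; adjusted p = 0.00271 and 0.0385). Thrsp, a lipogenic protein abundant in fat, was called lower in the abdominal segment (-0.95 ± 0.149; adjusted p = 0.000978). The SREBP escort Scap (-0.04 ± 0.0656; adjusted p = 0.794) and Srebf2 (-0.11 ± 0.0895; adjusted p = 0.544), the regulator of cholesterol synthesis, were not called.

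ChREBP partners and targets went both ways, with 1 of 9 called lower and 2 higher in the abdominal and 0 lower and 2 higher in the thoracic segment. Mlxip, which encodes the glucose-responsive paralogue MondoA, rose by 0.51 ± 0.0856 and 0.47 ± 0.0925 (limma adjusted p = 0.00165 and 0.0148). Txnip, the thioredoxin-interacting protein that both factors induce, rose by 0.37 ± 0.0965 and 0.43 ± 0.104 (adjusted p = 0.031 and 0.0437). Pnpla3, a lipid droplet hydrolase, was 5.70, 5.67, 6.34 and 5.45 on abdominal high phosphate and 8.15, 7.02, 6.95 and 7.49 on chow, and fell by 1.62 on the log2 scale (adjusted p = 0.00279). Pyruvate kinase Pklr, a classical liver target of ChREBP, was at 0.06 ± 0.0735 (adjusted p = 0.735).

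Other desaturases and elongases had 3 of 14 genes called lower in the abdominal segment, with a list median of -0.03. Elovl3, an elongase of very long chains in brown fat and skin, fell by 1.65 on the log2 scale (SE 0.381; limma adjusted p = 0.0154). Hsd17b12, the reductase of the elongation cycle, was called in both segments (-0.87 ± 0.135 and -0.61 ± 0.146; adjusted p = 0.00092 and 0.038). Hacd1, a dehydratase of that cycle best known from muscle, fell by 0.65 (SE 0.13; adjusted p = 0.00592) in the abdominal segment. The polyunsaturated desaturases Fads1 and Fads2 were at 0.00 ± 0.0858 and -0.10 ± 0.134 and not called (adjusted p = 0.999 and 0.755). Of 6 genes of acetyl-CoA and acyl-CoA activation 1 was called, Acsl5, lower in the abdominal segment (-0.66 ± 0.164; adjusted p = 0.0238) and at -0.68 ± 0.177 in the thoracic one (adjusted p = 0.0565).

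**Figure D5:**
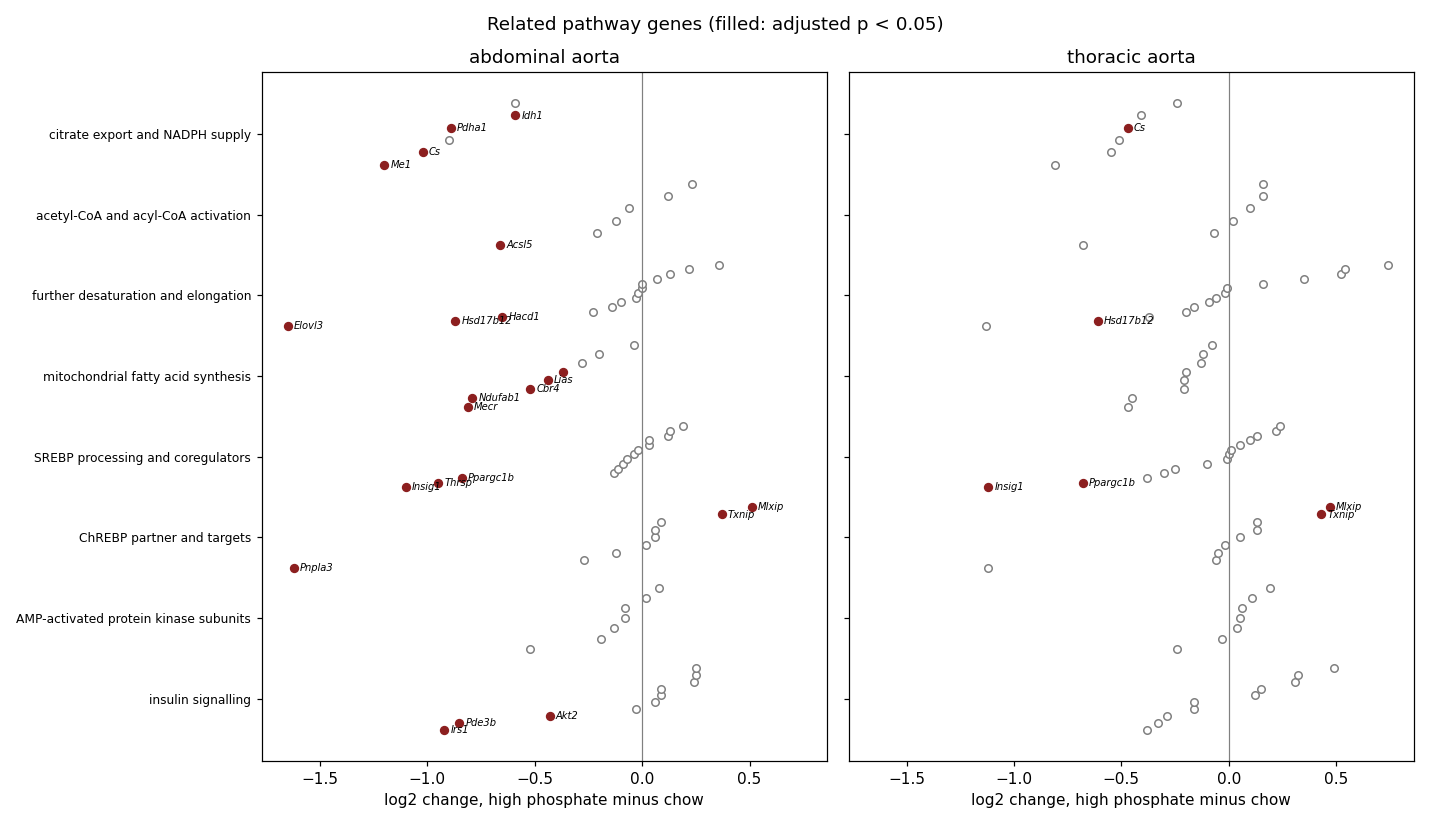
Change with diet (high phosphate minus chow, log2 units) of 74 genes in 8 related lists, 1 point per gene, for the abdominal (left) and thoracic (right) aorta; filled points passed an adjusted p under 0.05, and up to 4 per list are named. The list named citrate export and NADPH supply lay wholly below 0 in both panels, and Mlxip and Txnip are the filled points above 0.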

How the data were processed

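Total RNA of 15 aorta samples was amplified (NuGEN Applause, WT-Amp Plus ST), labelled with biotin and hybridised, per the labels' protocols. The authors deposited 1 value per probe set and array, taken here as log2 intensity; RMA and Partek are named in the submitters' processing notes without saying which did what, and the log base was inferred from the range (1.381 to 13.33). Array medians were 5.778 to 5.84. Detection calls and scan dates were not analysed here, so signal over background is unknown and batches could not be looked for. Of 41345 probe sets 23521 named exactly 1 gene; for the 1082 genes with several, the brightest by mean was used, which left 22180 genes with no dim-gene filter. Each member had 1 probe set. Levels of different probe sets are not comparable.

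Titles gave each array its segment and diet. The limma package (version 3.58.1, under R 4.3.3) fitted 1 mean per group with lmFit and a trended eBayes step (11 residual degrees of freedom, median prior 3.901), giving 5 contrasts, with two-sided tests, Benjamini-Hochberg adjustment over all genes and a threshold of 0.05. Each p-value sets a difference of group means against the spread between arrays, pooled over the 4 groups and adjusted by the eBayes step. Arrays outside a contrast therefore also enter its p, and the groups differed in spread, as given above. The script was tested on simulated data. Members of the gene set and the related and marker lists were chosen with earlier results of these data known. All 10 members were named, from each list up to 4 called genes with the smallest p and 2 not called, and the 3 nearest genes of the 4 most variable members. Adipoq was an exception, named although other called adipocyte genes, among them Retn and Lgals12, had a smaller p and a greater fall. Figures were drawn with matplotlib 3.10.9. The alternatives tried were the normalization, centring, dim-gene filter, variance prior, array weights, probe set rule, samples in the fit, replicate block, marker covariates, threshold and arrays left out. Genes of these lists without a single-gene probe set (G6pdx, Acsl1, Acsl3, Scd2, Hsd17b8 and Nr1h2) were not analysed here. Promoter windows came from a RefSeq table (GRCm38.p6).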

Additional observations from a re-analysis of the deposited data

Results flagged for a closer look

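Elovl5 on abdominal high-phosphate array 4 was 8.97, apart from the other arrays of its group, of which the nearest was 9.2. The gap was 0.839 of the group's range, just over Dixon's 95% critical value for 4 arrays. It was the 1 such value in 42 checks of a gene in a group of 4 or of a list mean, and chance flags about 1 in 20. The array is also the one with the highest hepatocyte list mean, 10.72; the part of that in the value was not tested. It lay further from chow than the others, and Elovl5 kept its abdominal call without it.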

How the results depend on the processing

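Over 28 alternatives each, including the 15 single arrays left out, the abdominal count of called members (4) moved by over 1.5 times under 5 and the thoracic count (1) under 5; over 29, the count on high phosphate between segments (0) moved under 5. The differences of the diet changes and of the segments on chow gave 0 members under every alternative run. Leaving out single arrays gave 3 to 7 abdominal, 1 to 2 thoracic and 0 to 1 high-phosphate segment calls; 7 and 2 came without thoracic chow array 3, and 1 without abdominal high-phosphate array 3. The abdominal count was 0 with the adipocyte covariate (21 of all genes called, against 1554 in the fit as reported), 0 with the brown adipocyte covariate (chosen after seeing the data; 0 of all genes called; 2 members at an unadjusted p under 0.05 in limma), 2 without abdominal high-phosphate arrays 3 and 4 (1732 of all genes), and 0 without the 5 arrays with lymphocyte markers (137 of all genes). The thoracic count was 3 with array weights (Fasn and Acss2 added), 2 at an adjusted p under 0.1 and 2 with the adipocyte covariate (Acacb higher); with the brown covariate Acacb took the place of Elovl5. The segment count on high phosphate was 1 with array weights and 1 without abdominal high-phosphate arrays 3 and 4, Mlxipl in both. Elovl6 was called in the abdominal segment after removal of dim genes, quantile normalization, median centring, with array weights, the replicate block or the relaxed threshold. The causes were not tested, except that leaving out arrays leaves fewer samples. For the single-array, array weights and replicate block fits no count over all genes is given here. Those member counts therefore stand without a share to set them against.

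Replicate numbers were not taken as pairs, and the main fit took the 15 arrays as independent. Over all genes, deviations of same-numbered abdominal and thoracic arrays correlated at 0.0308 to 0.122 on high phosphate and 0.0295 to 0.0691 on chow. Differently numbered arrays correlated at -0.0902 to 0.0742 on high phosphate and -0.151 to 0.141 on chow. Of the thoracic arrays 2 of 3 and 2 of 4 correlated best with their own number. These values cannot settle whether same-numbered arrays came from 1 mouse. With the number as a block the abdominal count was 6 (Acaca and Elovl6 added), the thoracic count 2 (Fasn added, limma adjusted p = 0.00515), and the high-phosphate segment count 1 (Scd1, 0.66). That block also joins same-numbered arrays of different mice across the diets, so it is not a pairing of segments. Across the diets such arrays correlated at -0.25 to 0.404 in the abdominal and 0.0256 to 0.17 in the thoracic segment. As a block within diet the high-phosphate segment count was also 1 (Scd1, 0.55).

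Changes of sign were counted where the first value was at least 1 SE from 0. The adipocyte mean did not overlap between the diets in the abdominal segment, and the brown mean did not in either segment. There the covariate fits cannot separate these means from diet. With the adipocyte covariate Srebf1 was 0.222 in the abdominal change; Acacb was 0.273 and Srebf1 0.077 in the difference; and Acaca was -0.176, Acacb -0.412, Srebf1 -0.126 and Mlxipl -0.124 between segments on high phosphate. With the brown covariate the abdominal changes were 0.103 for Acaca, 0.49 for Acly and 0.593 for Srebf1, the thoracic ones 0.182 for Acaca and 0.068 for Elovl6, the differences 0.248 for Acacb and 0.027 for Srebf1, the chow segment difference -0.079 for Mlxipl, and those on high phosphate -0.299 for Acaca, -0.684 for Acacb, -0.263 for Srebf1 and -0.372 for Mlxipl. Without the 5 arrays with lymphocyte markers the high-phosphate segment differences were -0.041 for Acaca and -0.011 for Mlxipl. The fit of only the groups compared was not run for the difference. The number of arrays limits the precision.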

Other observations

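Mitochondria have a fatty acid synthesis pathway of their own, which makes the precursor of lipoic acid. Of 8 measured genes of it 5 were called lower in the abdominal segment and 0 in the thoracic one, with list medians of -0.41 and -0.21 against -0.01 over all genes. The reductase Mecr fell by 0.81 on the log2 scale (SE 0.106; limma adjusted p = 0.000265), the acyl carrier protein Ndufab1, also a subunit of complex I, by 0.79 (SE 0.128; adjusted p = 0.00124), the reductase subunit Cbr4 by 0.52 (SE 0.0946; adjusted p = 0.00322) and the lipoic acid synthase Lias by 0.44 (SE 0.0923; adjusted p = 0.00831). Thoracic Mecr was at -0.45 ± 0.115, just short of the threshold (adjusted p = 0.0513), and the difference between the diet changes of the segments was called by limma for 0 of the 8, with 2 at an unadjusted p under 0.05 (Mecr and Cbr4).

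Insulin signalling, which controls SREBP-1c, had 3 of 10 genes called lower in the abdominal and 0 in the thoracic segment, with medians of 0.07 and -0.02. The called genes were the insulin receptor substrate Irs1 (-0.92 ± 0.182; limma adjusted p = 0.00539), the phosphodiesterase Pde3b, through which insulin restrains lipolysis (-0.85 ± 0.167; adjusted p = 0.00533), and the kinase Akt2 (-0.43 ± 0.106; adjusted p = 0.0234). The receptor Insr was at 0.06 ± 0.0817 and Akt1 at 0.09 ± 0.0748, neither called (adjusted p = 0.751 and 0.58). Of 7 subunit genes of the AMP-activated protein kinase, which phosphorylates and restrains acetyl-CoA carboxylase, 0 were called in either segment by limma, and 1 had an unadjusted p under 0.05. That was Prkag2 in the abdominal segment (-0.52 ± 0.169; adjusted p = 0.0826), where Prkaa2 was at -0.19 ± 0.0936 (adjusted p = 0.269).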
